A study of Homo sapiens with 12 samples.

Results

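Coagulation factors, their cofactors and the serpins that hold proteases in check are made largely by hepatocytes and secreted into plasma. The gene group described here holds 34 genes of these or related kinds, chosen by symbol from a named list. The authors' deposited expression table holds 28265 genes. In the authors' deposited m6A table the same symbols name 99 of 46178 regions. RNA came from HepG2, a widely used hepatocellular carcinoma line, treated with toosendanin, a triterpenoid of Melia toosendan known for liver toxicity, or labelled control. Each condition has 3 libraries of RNA pulled down with an antibody against N6-methyladenosine (m6A; IP) and 3 of the RNA before pull-down (input), so 12 libraries in all. All groups are 1 cell line, and the dose, the duration and any vehicle of the control were not given in the sources used here.

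In blood clotting, tissue factor (F3) with factor VII starts the extrinsic arm, while factor XII, plasma kallikrein and kininogen start the contact arm. Both arms lead to factor X, which with factor V cleaves prothrombin (F2) to thrombin, and thrombin turns fibrinogen into fibrin. Antithrombin and other serpins trap the proteases by offering a bait loop, protein C with protein S inactivates factor V, and plasmin dissolves the clot. In the liver, many of these genes are known targets of HNF4, FOXA and C/EBP factors, and fibrinogen and some serpins belong to the acute-phase response to interleukin-6.

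Markers of hepatocytes were abundant in these cells. All 8 hepatocyte markers had mean normalized counts of at least 5546 in the authors' deposited table, with 2 higher and 2 lower after toosendanin. Of 6 endothelial markers 3 and of 6 fibroblast markers 4 were listed at 0, and the highest of these 12 was 36.1 (PDGFRB), which was called lower in the authors' deposited table. Of 8 blood and platelet markers 4 were listed at 0, PTPRC among them. The exception was CD68, a lysosomal membrane protein also found outside macrophages, at 1426 and called higher by 1.41 on the log2 scale in the authors' deposited table. Of 6 cholangiocyte markers 2 were listed at 0. The other 4 were well counted, with mean normalized counts of 9864 (EPCAM), 9620 (KRT19), 7784 (SOX9) and 2941 (SPP1). Of these 4, KRT19 and SPP1 were called lower in the same authors' deposited table. The part of these markers in the results below was not tested. The deposited values are means or sums over libraries, so no value per library is given. Counts over all regions summed to 29094328 for toosendanin IP, 24253006 for toosendanin input, 42316089 for control IP and 34131862 for control input.

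The upstream sequences of 6 genes are shown, picked from those whose transcripts moved most within the group or moved apart although the genes are neighbours. They are the 250 bases before the gene's start in RefSeq on GRCh38.p14, read 5′ to 3′ on the gene's strand. Capitals mark matches on either strand to letters known from the sites of liver factors. Those of HNF4 were searched as AAAGTCC. FOXA was searched as TGTTTAC, with TGTTTGC as its other form. For C/EBP the letters were TTGCNNAA, and for the interleukin-6 response element they were CTGGGAA. The TATA box was searched as TATAAA. FGA (chr4:154590743-154590992, minus strand) and FGG (chr4:154612657-154612906, minus strand), whose transcripts fell, lie beside FGB (chr4:154562730-154562979, plus strand, the first of 2 starts in the table). CPB2 (chr13:46105034-46105283, minus strand) and SERPINA7 (chrX:106038728-106038977, minus strand) fell most, and PROZ (chr13:113158398-113158647, plus strand) rose. PROC and PLG, with log2 fold changes of -0.85 and -0.82, moved more than PROZ and FGA but are not shown.
FGA: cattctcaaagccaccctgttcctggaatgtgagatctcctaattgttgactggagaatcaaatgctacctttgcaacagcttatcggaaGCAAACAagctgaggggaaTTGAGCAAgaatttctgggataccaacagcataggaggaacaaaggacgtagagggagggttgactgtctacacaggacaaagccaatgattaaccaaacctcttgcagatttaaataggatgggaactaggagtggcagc
FGG: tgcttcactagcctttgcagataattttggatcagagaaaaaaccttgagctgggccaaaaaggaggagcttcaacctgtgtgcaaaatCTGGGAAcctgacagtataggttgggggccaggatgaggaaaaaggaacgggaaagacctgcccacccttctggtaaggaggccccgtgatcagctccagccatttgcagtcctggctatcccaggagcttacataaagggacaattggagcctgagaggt
FGB: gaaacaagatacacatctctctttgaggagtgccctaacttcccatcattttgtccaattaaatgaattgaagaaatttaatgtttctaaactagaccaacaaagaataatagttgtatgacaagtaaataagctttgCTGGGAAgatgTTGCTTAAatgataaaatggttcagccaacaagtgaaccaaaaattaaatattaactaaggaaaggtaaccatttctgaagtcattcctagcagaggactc
CPB2: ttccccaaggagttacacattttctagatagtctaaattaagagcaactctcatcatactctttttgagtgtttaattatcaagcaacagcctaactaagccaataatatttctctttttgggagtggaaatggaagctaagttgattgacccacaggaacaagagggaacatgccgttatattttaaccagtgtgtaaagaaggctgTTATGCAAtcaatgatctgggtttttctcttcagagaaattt
SERPINA7: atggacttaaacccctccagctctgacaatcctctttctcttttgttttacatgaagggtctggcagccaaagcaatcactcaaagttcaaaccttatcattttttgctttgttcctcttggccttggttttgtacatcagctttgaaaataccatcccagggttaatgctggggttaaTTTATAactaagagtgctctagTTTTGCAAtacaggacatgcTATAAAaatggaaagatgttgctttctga
PROZ: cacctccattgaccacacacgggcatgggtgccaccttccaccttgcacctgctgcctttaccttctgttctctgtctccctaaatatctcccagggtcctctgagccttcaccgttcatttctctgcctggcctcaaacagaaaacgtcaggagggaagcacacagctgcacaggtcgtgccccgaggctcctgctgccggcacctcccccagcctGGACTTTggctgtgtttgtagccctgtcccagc

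Toosendanin was followed by a mixed shift in this gene group, with antithrombin up and 2 fibrinogen chains, protein C, plasminogen and TAFI down. In the authors' deposited DESeq2 table, 33 genes have an adjusted p and 21 of them were called at an adjusted p under 0.05, which is 63.6% against 31.4% of all 16552 genes tested. There were 8 higher and 13 lower, against 15.7% higher and 15.7% lower over all genes. An adjusted p under 0.01 left 6 higher and 13 lower, against 23.8% of all genes called (11.9% higher and 11.9% lower). Adjustment over every gene with a p-value left 7 higher and 13 lower, against 26.6% of all genes called (13.2% higher and 13.3% lower). The members are mostly highly counted: 26 lie in the upper 50% of mean normalized counts, where 20 were called, against 45.6% of all genes there (7 members higher, against 22.5% of genes, and 13 lower, against 23.1%). Called changes were moderate, with a median size of 0.48 on the log2 scale for the members and 0.53 for all called genes, and 1 rose and 1 fell by at least 2-fold. Of all genes 7.29% changed by at least 2-fold with a call, 3.84% higher and 3.46% lower. The median log2 fold change over the 33 was -0.09, against -0.00023 over all genes tested. As the RNA is bulk RNA, fewer cells making a transcript and less of it per cell cannot be told apart.

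**Figure D1:**
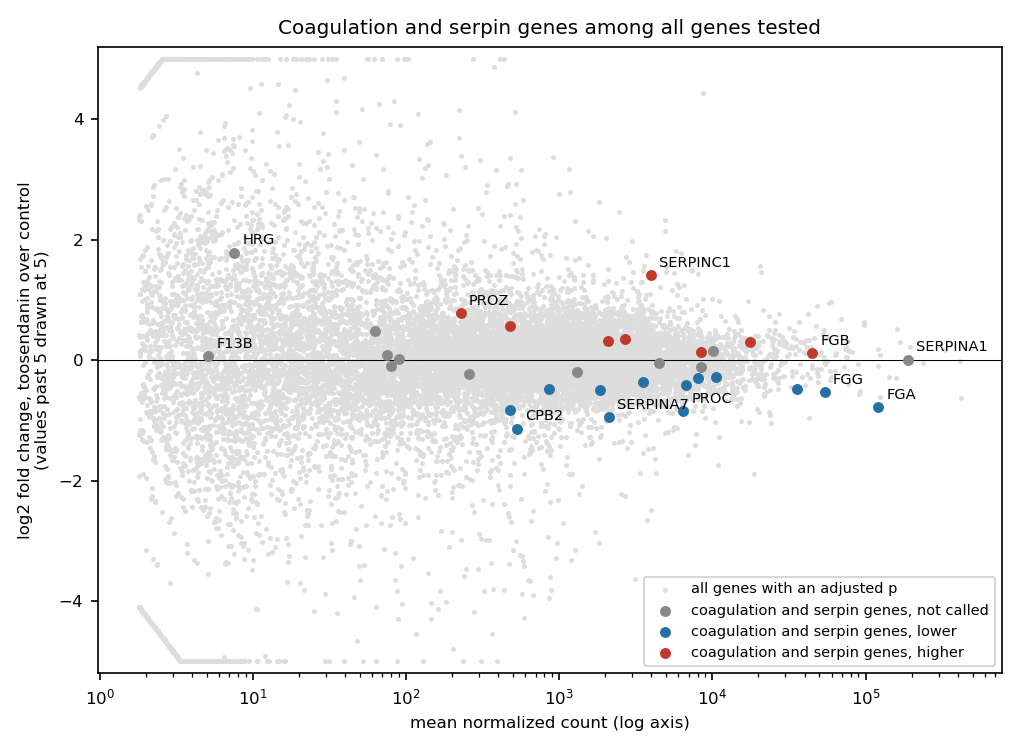
The log2 fold change, toosendanin over control, against the mean normalized count (log axis) for all genes with an adjusted p (light grey) and for the coagulation and serpin genes (red higher, blue lower, dark grey not called), from the authors' deposited table, with values past 5 drawn at 5. SERPINC1 stands highest among the called members at 1.41 and CPB2 lowest at -1.13, and most members lie at high counts.

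The serpins that inhibit clotting proteases moved in opposite directions. SERPINC1 encodes antithrombin, the main plasma inhibitor of thrombin and factor Xa. Its input counts were 6236 in toosendanin, against 3130 in control, which is 257 counts per 1000000 region counts (CPM) in toosendanin and 91.7 CPM in control. The authors' deposited DESeq2 table gives SERPINC1 a log2 fold change of 1.41 ± 0.06 (± is the standard error here and below), a 2.65-fold rise with an adjusted p of 1.86e-101. It ranked 421 by log2 fold change among the 2600 genes called higher, and no other member rose by as much as 2-fold with a call.

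SERPIND1 encodes heparin cofactor II, a further thrombin inhibitor. It had 262 input CPM in toosendanin, against 312 in control, and fell by 0.29 ± 0.07 on the log2 scale in the authors' deposited DESeq2 table (adjusted p = 0.000215). SERPIND1 overlaps PI4KA in the annotation, and PI4KA rose by 0.56 ± 0.06 in the authors' deposited table, opposite to SERPIND1. SERPINA10, the protein Z-dependent inhibitor of factor Xa, had 27.0 CPM in toosendanin, against 34.1 in control, and fell by 0.48 ± 0.10 in the authors' deposited DESeq2 table (adjusted p = 3.39e-05). Its cofactor, protein Z (PROZ), went the other way: 7.67 CPM in toosendanin, against 4.19 in control, with a log2 fold change of 0.79 ± 0.21 in the authors' deposited DESeq2 table (adjusted p = 0.00107). PROZ overlaps PCID2, whose mean normalized count of 1007 exceeds that of PROZ at 227, and the log2 fold change of PCID2 was 0.08 ± 0.12 in the authors' deposited table.

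The other serpins of clotting proteases were not called. SERPINA5, the protein C inhibitor, had 396 input CPM in toosendanin, against 335 in control, and a log2 fold change of 0.15 ± 0.07 in the authors' deposited DESeq2 table with an adjusted p of 0.106. SERPING1, the C1 inhibitor that also blocks factor XIIa and kallikrein, was thinly counted, with 60 input counts in toosendanin and 99 in control. Its log2 fold change in the authors' deposited table was 0.01 ± 0.36, too wide an error to show a change of moderate size.

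**Figure D2:**
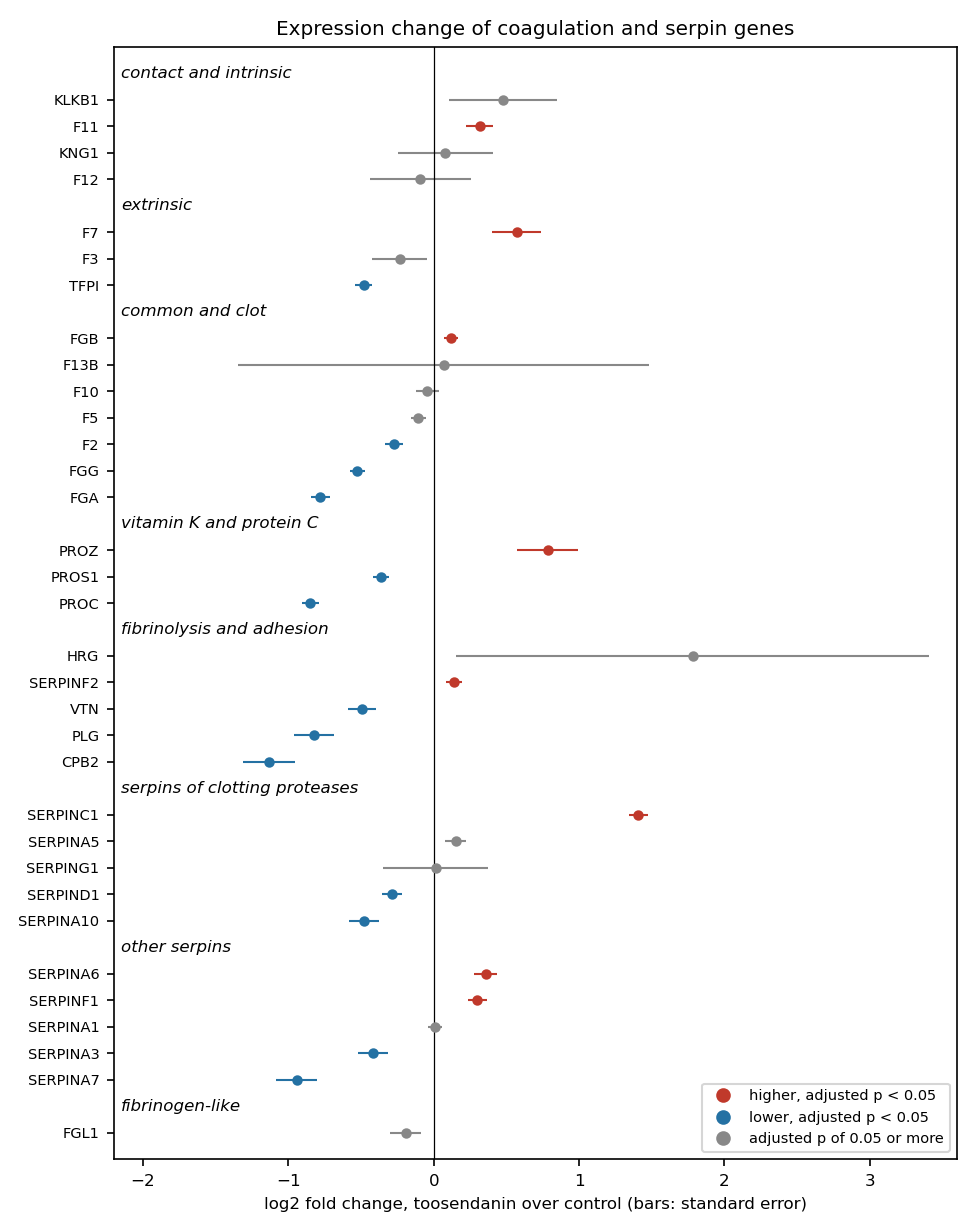
Each point is the log2 fold change, toosendanin over control, of 1 gene from the authors' deposited table, with its standard error, grouped by role (red higher, blue lower, grey not called). Every role holds called rises and called falls except the contact arm, where F11 alone was called, and FGL1, which was not called. HRG and F13B carry the widest errors.

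The 3 fibrinogen chains, which are assembled together into 1 hexameric protein, did not move together. FGA had 3413 input CPM in toosendanin, against 5739 in control, FGG had 1805 in toosendanin, against 2567 in control, and FGB had 1689 in toosendanin, against 1513 in control. FGA and FGG are thus lower, and FGB is slightly higher. The authors' deposited DESeq2 table gives FGA -0.78 ± 0.06 (adjusted p = 1.35e-32), FGG -0.53 ± 0.05 (adjusted p = 1.89e-23) and FGB 0.12 ± 0.05 (adjusted p = 0.0381). From these values the difference in log2 fold change, FGA minus FGB, was -0.90 ± 0.08, with an error that treats the genes as independent. FGA held 2.02 input counts per FGB count in toosendanin, against 3.79 in control, and FGG held 1.07 in toosendanin, against 1.70 in control. FGL1, a secreted fibrinogen-like protein, had 48.7 CPM in toosendanin, against 56.2 in control, and was not called in the authors' deposited DESeq2 table (-0.19 ± 0.11, adjusted p = 0.177).

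These counts are large. Together with SERPINA1, the fibrinogen genes took 1.43% of all input region counts in toosendanin, against 1.69% in control. FGA, FGB and FGG lie next to each other on chromosome 4, in the order FGB, FGA, FGG.

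**Figure D3:**
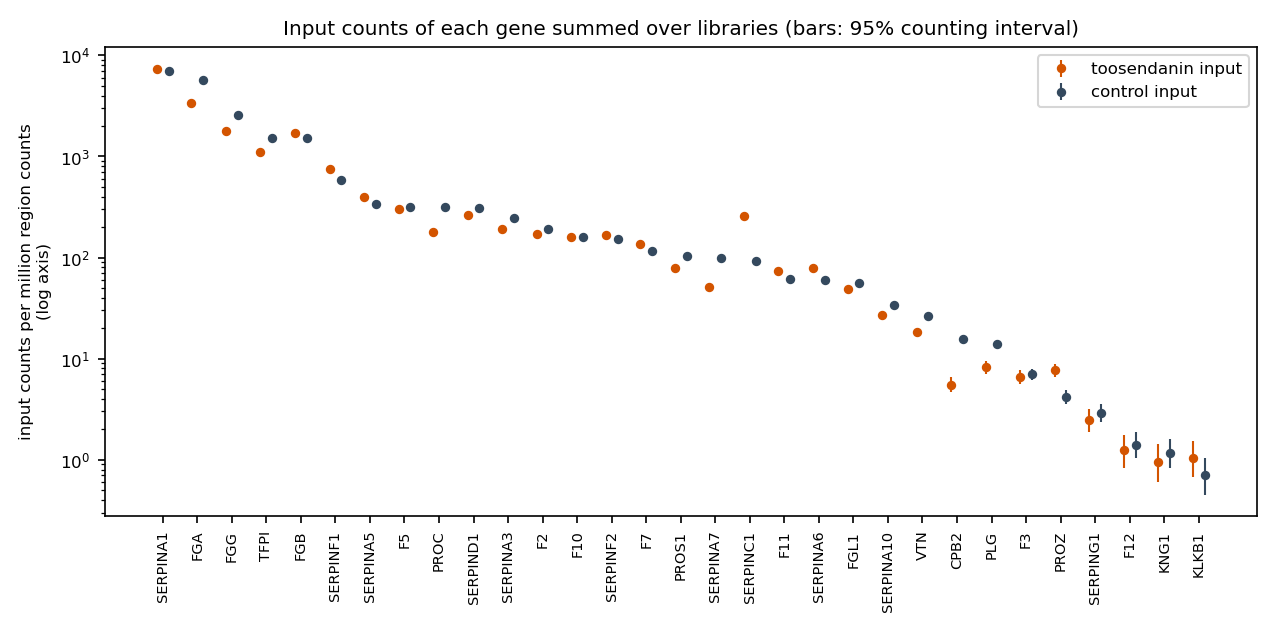
Input counts of each gene, summed over the libraries of a condition and scaled to counts per 1000000 region counts (CPM, log axis), in toosendanin (orange, left) and control (dark, right), with 95% counting intervals. SERPINC1 stands out upward (257 in toosendanin, against 91.7 in control), while CPB2 (5.53 in toosendanin, against 15.6 in control), SERPINA7, PROC and FGA are lower in toosendanin.

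Among the factors upstream of fibrin, prothrombin fell slightly and 2 genes of the extrinsic arm moved apart. Prothrombin (F2) had 172 input CPM in toosendanin, against 190 in control, and fell by 0.27 ± 0.06 in the authors' deposited DESeq2 table (adjusted p = 7.72e-05). F5, the cofactor of prothrombin cleavage, stood at -0.11 ± 0.05 (adjusted p = 0.0978) and the protease F10 at -0.04 ± 0.08 (adjusted p = 0.754) in the authors' deposited DESeq2 table, neither called. F5 was the uncalled member nearest to the threshold, and SERPINF2 the called one nearest to it.

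Factor VII (F7) had 136 input CPM in toosendanin, against 116 in control, and was higher by 0.57 ± 0.17 in the authors' deposited DESeq2 table (adjusted p = 0.00372). The inputs gave F7 a smaller log2 change of 0.24 ± 0.03 (counting error). F7 had 3306 region input counts in toosendanin and 3949 in control, at a mean normalized count of 477. F11 had fewer, 1785 in toosendanin and 2075 in control, at a higher mean of 2070. The region counts and CPM of F7 may thus hold reads that its mean normalized count leaves out, which was not tested. TFPI, the inhibitor of factor VIIa with tissue factor, had 1097 CPM in toosendanin, against 1523 in control, and fell by 0.48 ± 0.06 in the authors' deposited DESeq2 table (adjusted p = 8.04e-14). Its partner tissue factor (F3), the membrane starter of the extrinsic arm, had 160 input counts in toosendanin and 240 in control, and was not called in the authors' deposited DESeq2 table (-0.23 ± 0.19, adjusted p = 0.39).

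In the contact and intrinsic arm, F11 was the sole called gene. F11, a protease that activates factor IX, had 73.6 input CPM in toosendanin, against 60.8 in control, and was higher by 0.32 ± 0.09 in the authors' deposited DESeq2 table (adjusted p = 0.00301). F12, kallikrein (KLKB1) and kininogen (KNG1) were thinly counted, with 23 to 30 input counts in toosendanin and 24 to 48 in control. Their log2 fold changes of -0.09 ± 0.35 (F12), 0.48 ± 0.37 (KLKB1) and 0.08 ± 0.33 (KNG1) in the authors' deposited table had no call, and these errors leave changes of moderate size undetectable at this depth. KLKB1 also overlaps CYP4V2, which had a mean normalized count of 670, against 62.8 for KLKB1. F9, factor IX, was listed at 0 and has no fold change. F13B, the carrier subunit of the factor that crosslinks fibrin, had a mean normalized count of 5.07 and a log2 fold change of 0.07 ± 1.42 in the authors' deposited table.

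Protein C and protein S transcripts both fell. PROC, the zymogen of the anticoagulant protease protein C, had 177 input CPM in toosendanin, against 314 in control, and fell by 0.85 ± 0.06 in the authors' deposited DESeq2 table (adjusted p = 1.39e-47). PROS1, its cofactor protein S, had 79.0 CPM in toosendanin, against 103 in control, and fell by 0.36 ± 0.05 (adjusted p = 6.69e-10) in the authors' deposited DESeq2 table. PROS1 has a near-identical pseudogene whose reads the counting may have shared with it, so its value is given as uncertain.

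Of 5 genes of fibrinolysis and adhesion, 3 were called lower and 1 higher, against 15.7% lower and 15.7% higher over all genes tested. CPB2 encodes TAFI, a carboxypeptidase that protects fibrin from plasmin. It had 134 input counts in toosendanin, against 531 in control, which is 5.53 CPM in toosendanin and 15.6 CPM in control, and fell by 1.13 ± 0.18 in the authors' deposited DESeq2 table (adjusted p = 2.37e-09). The inputs gave a larger fall, by 1.49 ± 0.14 with counting error. This was the largest called fall of the group. CPB2 overlaps the antisense transcript CPB2-AS1, which had a mean normalized count of 19.3, against 531 for CPB2.

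PLG, the zymogen of plasmin, had 199 input counts in toosendanin, against 481 in control, and fell by 0.82 ± 0.14 in the authors' deposited DESeq2 table (adjusted p = 1.93e-08). PLG has near-identical relatives in the genome, so its counts are given as uncertain. VTN, vitronectin, a plasma and matrix protein that supports cell adhesion, had 18.1 CPM in toosendanin, against 26.5 in control, and fell by 0.49 ± 0.10 in the authors' deposited DESeq2 table (adjusted p = 4.27e-06). SERPINF2, the plasmin inhibitor antiplasmin, was slightly higher, with 167 CPM in toosendanin, against 152 in control, and 0.14 ± 0.06 in the authors' deposited DESeq2 table (adjusted p = 0.0437). Adjusted over every gene with a p-value, SERPINF2 no longer passed (adjusted p = 0.0504, recomputed from the authors' deposited table). HRG, a plasma glycoprotein that binds plasminogen and heparin, had a mean normalized count of 7.50 and had no call in the authors' deposited table (1.78 ± 1.63).

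The remaining serpins, known for roles outside clotting, split as well. SERPINA7, the thyroxine-binding globulin, had 51.5 input CPM in toosendanin, against 98.6 in control, and fell by 0.94 ± 0.14 in the authors' deposited DESeq2 table (adjusted p = 4.57e-10). SERPINA3, the acute-phase inhibitor antichymotrypsin, had 190 in toosendanin, against 249 in control, and fell by 0.42 ± 0.10 in the authors' deposited DESeq2 table (adjusted p = 0.00033). Both hormone carriers among the serpins were called, in opposite directions: SERPINA6, the corticosteroid-binding globulin, had 79.0 CPM in toosendanin, against 59.9 in control, and rose by 0.36 ± 0.08 in the authors' deposited DESeq2 table (adjusted p = 3.26e-05).

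SERPINF1, the secreted factor PEDF, which inhibits no protease, had 758 input CPM in toosendanin, against 589 in control, and rose by 0.30 ± 0.07 in the authors' deposited DESeq2 table (adjusted p = 5.32e-05). SERPINA1, which encodes antitrypsin, the main plasma inhibitor of neutrophil elastase, was the most counted member, at a mean normalized count of 189276. It had 7412 CPM in toosendanin and 7064 in control, and the authors' deposited DESeq2 table gives 0.01 ± 0.05 (adjusted p = 0.916). The interval of that log2 fold change, -0.08 to 0.10 at 95%, excludes a change of the size seen for its neighbours SERPINA6 and SERPINA10.

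Some neighbours on a chromosome shared a direction and others did not. On chromosome 14, in the order of the RefSeq annotation, SERPINA10 fell, SERPINA6 rose and SERPINA1 was not called, followed by SERPINA11 at -1.04 ± 0.15 and SERPINA12 at -1.0 ± 0.23, both called lower in the authors' deposited DESeq2 table (adjusted p = 5.98e-11 for SERPINA11 and 6.6e-05 for SERPINA12). SERPINA4 (0.02 ± 0.12) and SERPINA5 were not called and SERPINA3 fell in the authors' deposited table. SERPINA9, between SERPINA11 and SERPINA12, had no adjusted p. On chromosome 13, F7 and PROZ rose on either side of F10, which was not called. On chromosome 17, the adjacent SERPINF2 and SERPINF1 were both called higher.

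**Figure D4:**
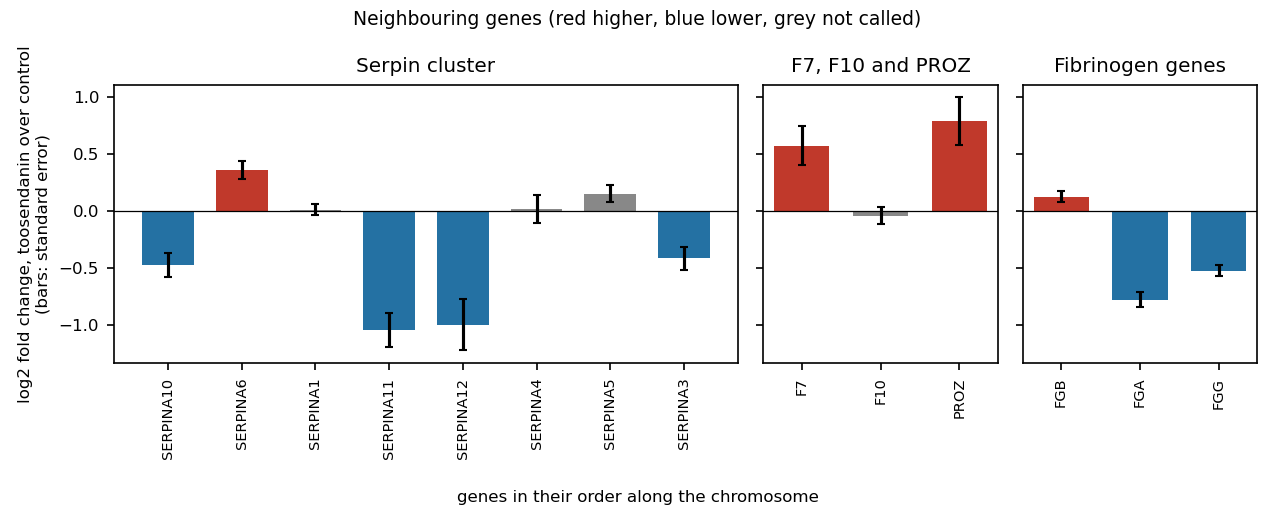
Bars give the log2 fold change, toosendanin over control, with its standard error from the authors' deposited table, for protein-coding genes in their order along chromosome 14 (left), 13 (middle) and 4 (right). Called rises (red) and called falls (blue) stand side by side, with SERPINA11 at -1.04 and PROZ at 0.79 the furthest from 0 on either side; SERPINA9, with no adjusted p, is not drawn.

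Matches to the C/EBP letters occurred upstream of members called in both directions. RefSeq windows were found for 29 members, and those of SERPINC1, FGL1, SERPINF1, SERPINF2 and SERPING1 were not used here. The C/EBP letters TTGCNNAA, on either strand, occurred in 9 of 29 members, against 3011 of 27305 genes with a window. They occurred in 1 of 5 members called higher, 6 of 13 called lower and 2 of 10 not called. Members share a tissue of expression, so these shares describe liver genes and were not compared with other liver genes. The HNF4 letters occurred in 3 of 29 members (10.3%), against 3.97% of all genes, and the FOXA letters in 6 (20.7%), against 7.41%. The interleukin-6 letters occurred in 5 members (17.2%), against 11.1% of all genes, and the TATA letters in 4 (13.8%), against 3563 of 27305 genes.

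In the sequences above, FGA and FGB both hold the C/EBP letters, from 141 to 134 bases before the start in FGA and from 101 to 94 in FGB. FGB and FGG hold CTGGGAA, from 112 to 106 bases before the start in FGB and from 161 to 155 in FGG. FGB, which was slightly higher, shares a match with each of the fibrinogen genes that fell. FGA also holds the FOXA letters, from 160 to 154 bases before its start, which FGB and FGG do not hold. The part of these matches in the changes was not tested. SERPINA7 holds the C/EBP letters from 49 to 42 bases before its start and TATAAA from 29 to 24, with a reverse TATAAA from 71 to 66. A match is a run of letters and not a measured binding site.

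Other genes of the system, from lists of genes that hold no member of the group, gave the following counts. Of 12 genes that carboxylate, process and export clotting factors, 3 were higher and 1 lower in the authors' deposited table (33.3% called; median 0.17). GGCX, the vitamin K-dependent carboxylase, stood at 0.53 ± 0.14 and VKORC1, which recycles vitamin K, at 0.34 ± 0.11 in the authors' deposited DESeq2 table (adjusted p = 0.00066 for GGCX and 0.0113 for VKORC1). The sulfotransferase TPST2 stood at 0.36 ± 0.12 and LMAN1, a cargo receptor for factors V and VIII, at -0.13 ± 0.05 in the authors' deposited table. That share stands against 31.4% of all genes tested and 45.6% of genes in the upper 50% of means. All genes of this list but PCSK5 lie in that upper 50%.

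Of 18 tested receptors, fibrinolysis and other coagulation genes 4 were higher and 3 lower in the authors' deposited table (38.9% called, median 0.18). Of all genes tested 31.4% were called, and of those in the upper 50% of means 45.6%. The protease-activated receptor F2RL1 was 1.05 ± 0.13 higher and the plasminogen receptor chain S100A10 0.40 ± 0.06 higher, while its partner ANXA2 fell by 0.75 ± 0.09 and the glycolytic enzyme ENO1, which also binds plasminogen, by 0.30 ± 0.08 in the authors' deposited table. Of 14 tested serpins outside the group 3 were higher and 4 lower in the authors' deposited table (7 called, median -0.11). That is 50% called, against the same 31.4% of all genes tested and 45.6% of those in the upper 50% of means. In that upper 50%, 4 of this list were called, and part of the list lies below it. These lists share 2 genes. Beside SERPINA11 and SERPINA12, the called ones include the intracellular serpin SERPINB8, 1.10 ± 0.20 higher, and the collagen chaperone SERPINH1, which fell by 0.52 ± 0.11 in the authors' deposited table.

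Of 32 liver transcription factors and genes of acute-phase signalling 11 were higher and 8 lower in the authors' deposited table (59.4% called, median 0.01). The share over all genes tested was 31.4%, and 45.6% in the upper 50% of means, where all of this list but SOCS3 lie. The smallest adjusted p-values belonged to the orphan receptor NR2F1, which fell by 1.16 ± 0.11, and to KLF6, ONECUT2, the repressor NR0B2 and the interleukin-6 receptor IL6R, higher by 1.63 ± 0.15, 0.72 ± 0.08, 1.48 ± 0.19 and 2.31 ± 0.41 in that order in the authors' deposited table. Factors whose motif letters were searched went both ways: FOXA1 fell by 0.54 ± 0.11 and FOXA2 by 0.43 ± 0.11, while CEBPA rose by 0.94 ± 0.18 and HNF4A by 0.16 ± 0.06 in the authors' deposited table. FOXA3 fell by 0.42 ± 0.16 and CEBPD by 1.08 ± 0.21, and HNF4G and CEBPB were not called in the authors' deposited table. STAT3, which carries the interleukin-6 signal, had a log2 fold change of -0.03 ± 0.09 with no call in the authors' deposited table. Of the same list, IL6ST fell by 0.42 ± 0.14 and JAK1 rose by 0.26 ± 0.07, both called there. SOCS3, at a mean normalized count of only 22.7, was called lower by 1.57 ± 0.57.

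m6A was called changed in few regions of these transcripts, by at most 0.38 in size on the log2 scale. Of 99 regions of 31 members 73 have an FDR in the authors' deposited table, and 10 of them, in 10 genes, were called at an FDR under 0.05, 2 higher and 8 lower. That is 13.7%, against 8.95% of all 24688 regions with an FDR, 2.71% higher and 6.24% lower. F9, F13B and HRG have no region. The deposited p-values hold counting error only, since counts were summed over libraries, so a very deep region can pass with a very small change. Regions carry no coordinates and are numbered in table order.

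IP reads were below the table's average in most regions of the group, as in most regions of the whole table. Enrichment, the IP share of a region over its input share with 1 the average of the table, had a median of -0.36 on the log2 scale in toosendanin and -0.44 in control over the 73 regions, against -0.11 in toosendanin and -0.18 in control over all regions. Below 1 lay 67.1% of the member regions in toosendanin and 69.9% in control, against 56.1% of all regions in toosendanin and 58.5% in control. F7 held the deepest region above 2-fold (region 5). It had 8739 IP and 3027 input counts in toosendanin, against 10338 IP and 3643 input in control. Enrichment there was 2.41-fold in toosendanin and 2.29-fold in control, and whether all these reads belong to F7 was not tested. At the low end, region 3 of SERPINF2 had 0.427-fold in toosendanin and 0.298-fold in control. Region 3 of SERPINF1 had 0.365-fold in toosendanin and 0.332-fold in control, and region 2 of F2 had 0.347-fold in toosendanin and 0.390-fold in control.

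In the fibrinogen genes, very deep regions were called at small changes. Region 1 of FGA had 128059 IP and 80636 input counts in toosendanin, against 316113 IP and 189911 input in control, and was called lower at a log2 change of -0.10 ± 0.01 (counting error) in the authors' deposited table (FDR = 6.17e-36). Region 1 of FGB was also called lower, at -0.10 ± 0.01, and region 2 of FGG higher, at 0.08 ± 0.01, in the authors' deposited table. The median log2 change of well-counted regions was itself -0.06, so relative to it FGA stood at -0.04, FGB at -0.05 and FGG at 0.13. SERPINA1 region 2, called lower at -0.03 ± 0.01 in the authors' deposited table, stood at 0.03 relative to that median and turned to a higher call after centring. Centred on it, 4 member regions were higher and 6 lower, against 8.01% of all regions called (4.76% higher and 3.26% lower).

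Larger changes were called in 5 other regions. Region 3 of SERPINF2 had 985 IP and 1922 input counts in toosendanin, against 970 IP and 2627 input in control. Its enrichment was below 1 in both conditions, 0.427-fold in toosendanin and 0.298-fold in control. The region was called higher at 0.38 ± 0.08 in the authors' deposited table (FDR = 4.97e-05). The other 4 regions of SERPINF2 stood between -0.43 and -0.14 and were not called there, and region 3 changed by 0.53 ± 0.13 more than region 4. Region 1 of SERPINA3 had 4905 IP and 3727 input counts in toosendanin, against 10583 IP and 6812 input in control, and was called lower at -0.30 ± 0.04 (FDR = 2.34e-12), while its region 2 stood at 0.22 ± 0.11 (FDR = 0.206) in the authors' deposited table.

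Region 2 of F2 was called lower at -0.31 ± 0.06 (FDR = 6.12e-05), region 1 of SERPINA7 at -0.24 ± 0.06 (FDR = 0.00417) and region 5 of F5 at -0.23 ± 0.04 (FDR = 2.03e-07) in the authors' deposited table. Regions 1, 3 and 4 of F2 stood at -0.32 ± 0.21, -0.49 ± 0.21 and -0.28 ± 0.11 there with no call. Region 5 of F2 stood at 0.16 ± 0.45 and region 2 of SERPINA7 at -0.62 ± 0.36, both with no FDR. The F5 region is the deepest of 10 in that gene, and the other 9 lay between -0.20 and 0.41 with no call. The last called region, region 1 of SERPINA5, stood at -0.13 ± 0.04 in the authors' deposited table (FDR = 0.0195). Region 2 of SERPINA5 stood at -0.11 ± 0.04 there with no call (FDR = 0.0995). With the error widened to the spread of the statistic over all regions, 5 of the 10 calls remained: those in F5, FGA, FGB, FGG and SERPINA3. They are 1 higher and 4 lower, against 1.71% of all regions called (0.571% higher and 1.14% lower).

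**Figure D5:**
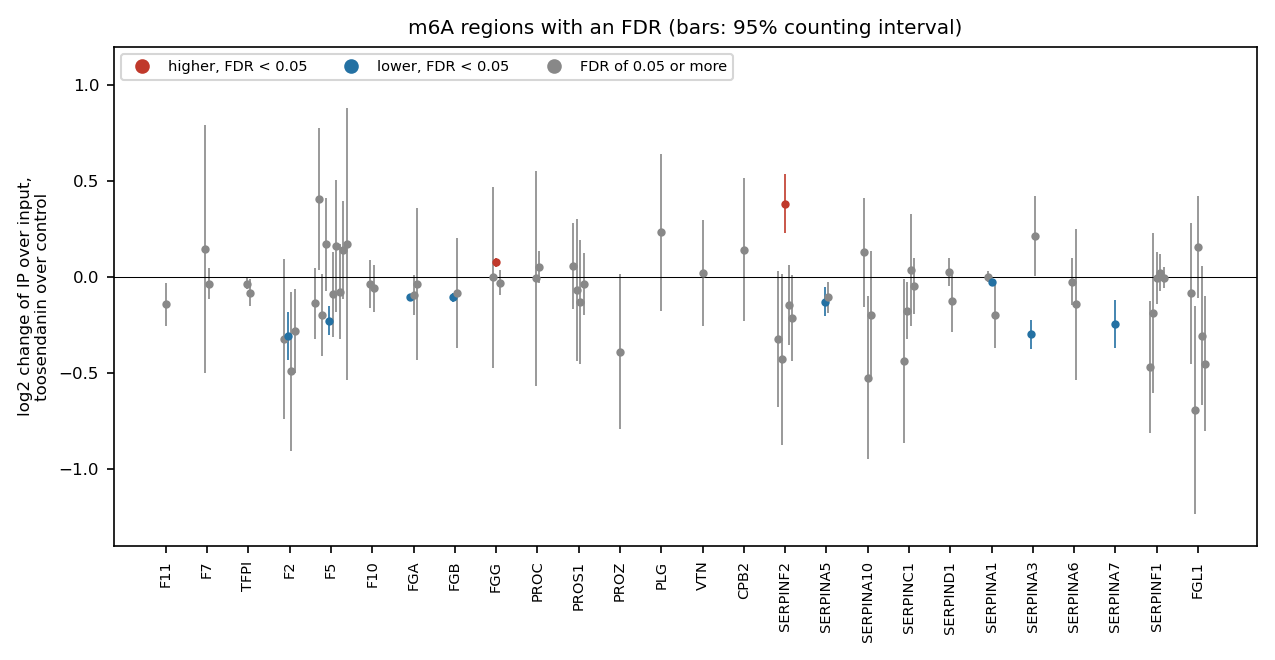
Each point is the log2 change of IP over input, toosendanin over control, of 1 region with an FDR in the authors' deposited table, with its 95% counting interval (red higher, blue lower, grey not called); genes follow the order of their roles. The called points of FGA, FGB and FGG lie within 0.11 of 0, while those of SERPINF2 (0.38), F2 (-0.31) and SERPINA3 (-0.30) lie further out.

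Of the called transcripts whose log2 fold change was at least as large in size as that of FGG, FGA, FGG and SERPINA7 had a called m6A region, while SERPINC1, CPB2, PROC, PLG, PROZ and F7 had none. The 5 regions of SERPINC1 ranged from -1.22 to 0.04, the lowest of them with 17 input counts in toosendanin and 5 in control and no FDR, and none was called in the authors' deposited table. PROC region 3, with 4165 input counts in toosendanin and 10440 in control, stood at 0.05 ± 0.04, and the single region of CPB2 at 0.14 ± 0.19 in the authors' deposited table. Region 4 of SERPINA1 had 130 IP and 100 input counts in toosendanin, against 79 IP and 131 input in control. Its log2 change was 1.09 ± 0.28, with a p-value of 0.000102 but no FDR in the authors' deposited table. Adjusted over regions with at least 100 counts, that p-value gave a higher call (adjusted p = 0.00435).

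In the members with no called region, the region with the most input counts moved by at most 0.17 in size where it was deep. In SERPINC1 and F11 it moved more than the called region 1 of FGA, at -0.10. TFPI region 1 stood at -0.03 ± 0.01, F7 region 5 at -0.03 ± 0.04, SERPINF1 region 5 at -0.00 ± 0.03 and SERPIND1 region 1 at 0.03 ± 0.04 in the authors' deposited table. SERPINA6 region 1 had -0.02 ± 0.06, F10 region 2 had -0.06 ± 0.06, PROS1 region 4 had -0.04 ± 0.08, F11 region 2 had -0.14 ± 0.06 and SERPINC1 region 2 had -0.17 ± 0.08 in the authors' deposited table. Thinner ones varied more: VTN had 0.02 ± 0.14, SERPINA10 region 2 had 0.13 ± 0.15, FGL1 region 3 had 0.16 ± 0.14, PLG region 1 had 0.23 ± 0.21 and PROZ had -0.39 ± 0.21 in the authors' deposited table. F3, F12, KLKB1, KNG1 and SERPING1 have regions but no FDR for the deepest of them, with log2 changes of -0.26 ± 0.28, 0.32 ± 0.46, 0.15 ± 0.50, 0.45 ± 0.60 and 0.27 ± 0.38 in that order in the authors' deposited table.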

How the data were processed

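The kit used for the libraries keeps strand and adds unique molecular identifiers, per the labels' protocols. The submitters' processing notes name HISAT2, StringTie and DESeq, with no version; build, annotation, counting and strand settings and the m6A tool were not given in the sources used here. Per the file headers, the deposited expression table is a DESeq2 output with a mean normalized count (a signal averaged over libraries), a log2 fold change and standard error, a Wald score, and raw and adjusted p-value columns. The libraries behind it were not given in the sources used here. The deposited m6A table holds whole-number counts per region, summed by the authors over libraries, with a log2 fold change of IP over input, a p-value and an FDR. In 99.5% of 45457 regions the error implied by that p-value differed by at most 1% from the Poisson error that the counts give.

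Toosendanin was read as the numerator, because the deposited log2 fold change and the ratio of inputs gave a Pearson r of 0.94 over 8985 genes in the upper 50% of means (genes are not independent replicates). The labels do not say that a group's libraries came from separate cultures, so the spread behind the expression p-values may be technical. The design foresaw a count test on counts per library, for which the tests the authors deposited stand in. Calls are at 0.05. Input counts per gene were summed over its regions and scaled to 1000000 region counts (CPM), and their log2 ratio was centred on its median over genes with at least 100 counts. Intervals are exact Poisson at 95% and cover counting error only. Levels are not divided by transcript length and are not compared between genes as amounts. Alternatives were a stricter threshold, a 2-fold limit, the upper 50% of means, adjustment over every p-value, centring, summed inputs and, for m6A, a count minimum, a widened error and regions of 1 gene.

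The members, the 4 gene lists and the motifs were chosen with earlier results of these data known. By rule the text gives every member, up to 5 genes with the smallest adjusted p in each list, every called m6A region and each member's most counted region. SERPINA4, SERPINA9, overlapping genes, the factors whose motifs were searched, IL6ST, JAK1 and SOCS3 were added after their values were seen. Some genes of the lists and 1 motif are not reported here by name. Recomputed adjustments were tested on simulated data. Software was Python 3.11.15 with numpy 2.4.6, pandas 2.3.3, scipy 1.17.1 and matplotlib 3.10.9.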

Additional observations from a re-analysis of the deposited data

How the results depend on the processing

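The expression counts of 8 higher and 13 lower members kept within 1.5 times under a threshold of 0.01, in the upper 50% of means, with adjustment over every p-value and after centring; under a 2-fold limit they were 1 and 1. The 2-fold limit left 0 called genes of the carboxylation list, 2 of the receptor and fibrinolysis list, 3 of the other serpins and 6 of the liver factors. A threshold of 0.01 left 1 of the carboxylation list, and the upper 50% of means left 4 of the other serpins. Summed input counts gave the same sign for all 21 called members. The direction of the comparison was itself read from these inputs, which may also be the libraries behind the deposited values. This agreement is thus not an independent check. Of members with no call, the sign turned for F10 (0.000339) and SERPING1 (-0.23), which the deposited table has at -0.04 and 0.01. Summed inputs moved F2 to -0.15, F7 to 0.24 and CPB2 to -1.49. For m6A, a threshold of 0.01, a minimum of 100 counts and regions of 1 gene kept both counts within 1.5 times. The minimum of 100 counts gave 3 higher regions, with region 4 of SERPINA1 added. Centring gave 4 higher regions, and the widened error 1 higher and 4 lower. The cause was not tested. No paired analysis was possible because the files hold no values per library, so leaving out replicates, a replicate block and DESeq2 on counts were not run. At the depth of F12, KLKB1, KNG1, SERPING1, F13B and HRG moderate changes were not detectable.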
